A study of Mus musculus with 6 samples.

Results

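The genes described here are 41 cell cycle and DNA replication genes, taken by gene symbol from a list, out of 55291 genes measured in macrophages of mouse liver tumours. All 41 were found. They were split by role into 17 genes of S phase and replication and 24 mitotic genes, with the microtubule regulator Stmn1 counted among the mitotic genes. Tumour-associated macrophages from hepatocellular carcinoma were compared by TREM2, a lipid-sensing receptor, with 3 libraries labelled TREM2+ and 3 labelled TREM2-. All 6 came from tissue labelled as liver tumour, and the sources used here do not give strain, age, tumour model, sorting gate or number of animals. The libraries were made from polyadenylated RNA, and 11493465 to 19929829 reads per library could be recovered from the deposited values. Levels are in TPM, read counts scaled by transcript length, with each library rescaled to a total of 1000000. Trem2 itself stood at 39.6, 40.8 and 30.7 TPM in TREM2+ replicates 1, 2 and 3 and at 16.9, 20.5 and 21.1 TPM in TREM2- replicates 1, 2 and 3. Its groups did not overlap, but with an adjusted p of 0.0855 in limma it did not pass the threshold of 0.05, and p was 0.1 in a two-sided exact permutation test, the smallest value that 3 against 3 libraries allow. All 8 macrophage marker genes, among them Csf1r, Adgre1 and Cd68, were measured in both groups.

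A dividing cell first licenses its replication origins, copies its DNA in S phase and then separates the copies in mitosis. E2F transcription factors switch on the S phase genes, among them the MCM helicase that unwinds DNA, the sliding clamp PCNA and the enzymes that supply deoxynucleotides. The mitotic genes follow later, when cyclin B with CDK1 drives the cell into mitosis and the anaphase-promoting complex lets it out again. Macrophages of a tissue or tumour can divide in place or be replaced by incoming monocytes, and these genes are the usual transcript readout of the former. In libraries of pooled cells, fewer dividing cells and less RNA per dividing cell cannot be told apart.

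The 2 gene sets differ in the sequence at their starts, which the choice of genes did not use. Promoter windows of 300 bases, from 250 bases before the transcription start to 50 after it, were matched by symbol in RefSeq (mouse build GRCm38, the same as mm10) for 34 of the 41 genes. A cell cycle genes homology region (CHR), bound by the MuvB complex, was searched as TTTGAA or TTCGAA on both strands. It was found in 17 of 21 windows of 20 mitotic genes (81.0%), in 2 of 16 windows of 14 S phase genes (12.5%) and in 19.2% of all 32851 windows. The CCAAT box, bound by NF-Y and searched as CCAAT on both strands, was found in 90.5% of the mitotic, 68.8% of the S phase and 37.4% of all windows. An E2F element, searched as 4 words on both strands (TTCCCGC and also TTGGCGC, besides them TTCGCGC and lastly TTGCCGC), was found in 4 of the 21 mitotic windows (19.0%), in 11 of the 16 S phase windows (68.8%) and in 9.57% of all windows. All 17 mitotic windows with a CHR also held a CCAAT box, a pair present in 7.52% of all windows. Windows were counted singly, so Prc1, Mcm7 and Uhrf1, with more than a single window each, enter repeatedly. The windows of Prc1 overlap each other. A match describes letters in a window and does not show that a factor binds there. Windows are printed below for Cdc20 and Ccnb2, the mitotic genes with the smallest p in the comparison that follows, for the proliferation marker Mki67, and for the helicase subunit Mcm6 as an S phase gene, 5′ to 3′ on the gene's strand, with every match to these motifs in capitals.
Cdc20, chr4:118437294-118437593, minus strand: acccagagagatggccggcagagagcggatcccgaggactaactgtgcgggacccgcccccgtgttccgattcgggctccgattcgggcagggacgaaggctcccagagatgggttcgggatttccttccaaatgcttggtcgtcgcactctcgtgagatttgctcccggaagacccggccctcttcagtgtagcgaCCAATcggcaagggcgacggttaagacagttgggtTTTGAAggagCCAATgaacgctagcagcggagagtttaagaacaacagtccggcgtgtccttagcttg
Ccnb2, chr9:70421505-70421804, minus strand: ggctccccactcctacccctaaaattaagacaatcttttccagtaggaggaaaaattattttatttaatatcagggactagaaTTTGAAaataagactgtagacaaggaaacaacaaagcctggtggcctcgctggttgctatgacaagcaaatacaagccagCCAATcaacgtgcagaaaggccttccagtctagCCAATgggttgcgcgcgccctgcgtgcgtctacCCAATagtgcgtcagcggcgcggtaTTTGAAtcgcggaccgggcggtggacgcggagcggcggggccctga
Mki67, chr7:135716330-135716629, minus strand: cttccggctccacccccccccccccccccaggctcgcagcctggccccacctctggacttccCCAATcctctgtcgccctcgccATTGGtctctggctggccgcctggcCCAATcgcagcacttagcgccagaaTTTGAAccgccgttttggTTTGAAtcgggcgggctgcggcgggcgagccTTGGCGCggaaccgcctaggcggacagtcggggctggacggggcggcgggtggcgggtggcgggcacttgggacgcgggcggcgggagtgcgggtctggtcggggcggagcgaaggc
Mcm6, chr1:128359656-128359955, minus strand: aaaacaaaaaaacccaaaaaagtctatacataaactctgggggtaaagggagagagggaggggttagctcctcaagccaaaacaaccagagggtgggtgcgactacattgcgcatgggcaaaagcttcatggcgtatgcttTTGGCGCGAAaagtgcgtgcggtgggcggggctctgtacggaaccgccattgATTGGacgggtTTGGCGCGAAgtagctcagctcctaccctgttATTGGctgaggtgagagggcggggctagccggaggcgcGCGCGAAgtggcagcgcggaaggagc
In Cdc20 the CHR began at -18 from the transcription start, between CCAAT boxes that began at -53 and -8. In Ccnb2 a CHR began at 5, downstream of CCAAT boxes at -87, -54 and -21, and another lay at -167. Mki67 carried CHR matches at -116 and -98 downstream of CCAAT boxes at -188, -166 and -141, and an E2F match at -67. Mcm6 had no CHR and 5 E2F matches, which form overlapping pairs at -109 and -106 and at -46 and -43, with the last at 25. Its window held the most E2F matches of the S phase windows, while those of Ccne1, E2f1, Mcm2, Pcna and Tyms held none.

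**Figure D1:**
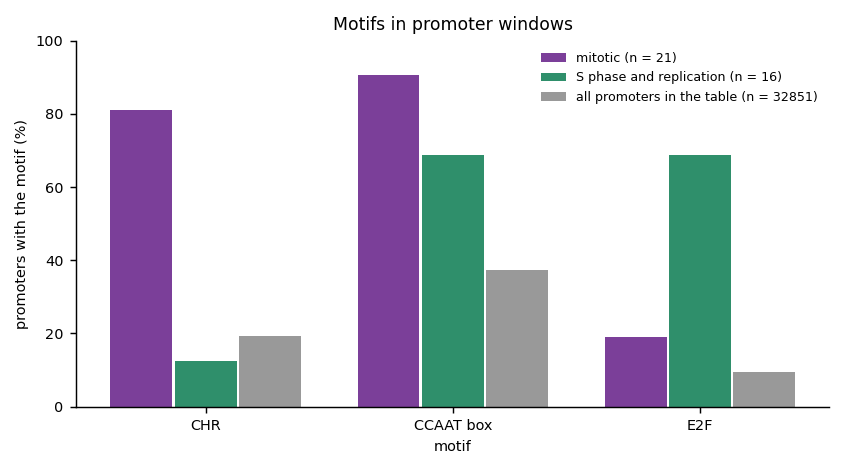
Share of promoter windows (vertical axis, percent) that hold a CHR, a CCAAT box or an E2F element, for the mitotic genes, the S phase and replication genes and all windows of the table. The CHR bar is at 81.0% for mitotic and 12.5% for S phase genes, and the E2F bars run the other way, at 19.0% and 68.8%.

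Transcripts of both sets were present in every library. Averaged over the 6 libraries, the members that passed the filter of at least 1 TPM in at least 3 libraries had levels from 1.16 TPM (Bub1) to 86.1 TPM (Pcna), with a median of 6.19 TPM, against a median of 7.16 TPM over all 13788 genes that passed it. Of the 41 members 40 passed. The exception was the kinetochore protein gene Cenpf, at 0.345, 0.518 and 0.384 TPM in the TREM2+ libraries and 0.589, 0.513 and 0.403 TPM in the TREM2- libraries.

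**Figure D2:**
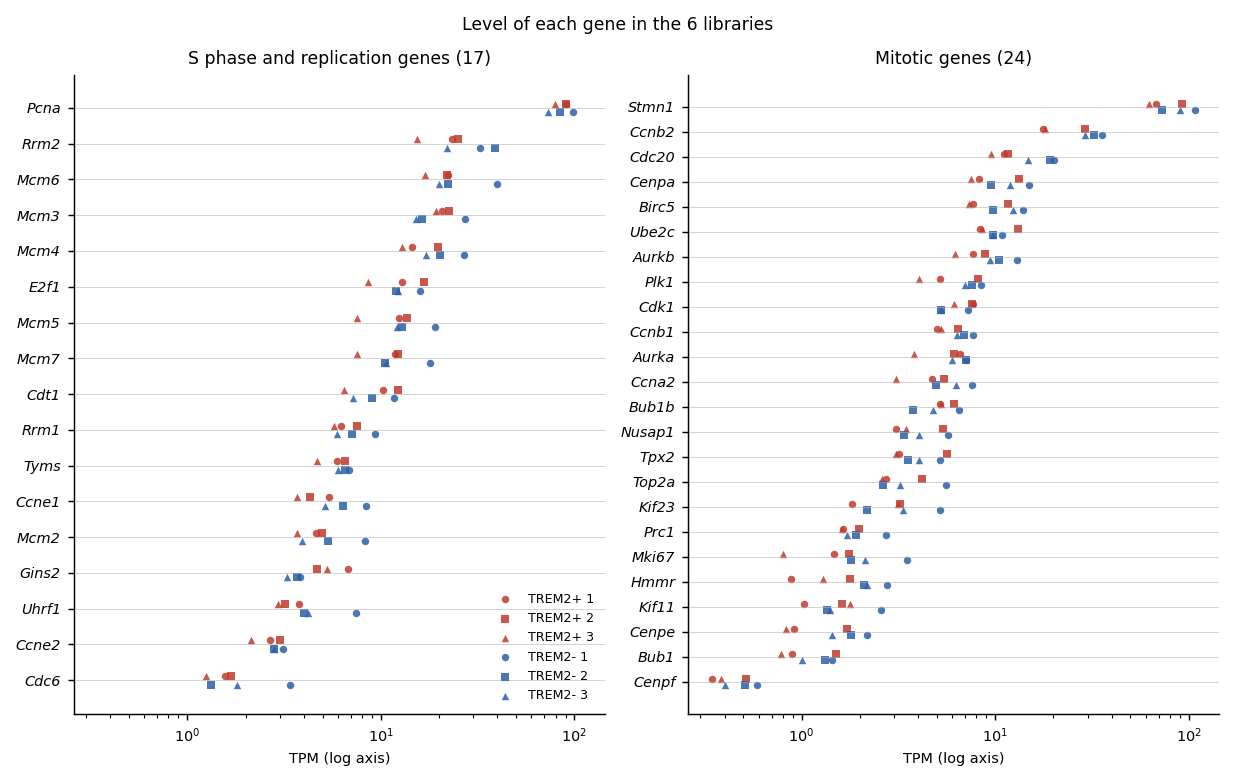
Level of each gene in TPM (horizontal log axis) in the 3 TREM2+ libraries (red) and the 3 TREM2- libraries (blue), with circles, squares and triangles for replicates 1, 2 and 3. Pcna and Stmn1 stand above all other members, at group means between 74.2 and 90.4 TPM, and red and blue points overlap for most genes.

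The comparison of TREM2+ with TREM2- macrophages asks whether they differ in the expression of the division machinery. Differences are given as log2 fold changes, TREM2+ over TREM2-, on the log2(TPM + 1) scale with the standard error of the limma fit over 3 against 3 libraries. None of the 17 S phase genes and none of the 23 mitotic genes tested passed the threshold, in either direction, with limma and Benjamini-Hochberg adjustment over all genes tested, of which 2.42% passed it (2.05% higher and 0.37% lower in TREM2+). At an unadjusted p under 0.05, limma placed 2 mitotic genes (Cdc20 and Ccnb2) lower in TREM2+ and no member higher, where 5.34% of all genes tested were lower and 7.45% higher (12.8% together). Limma's voom on recovered reads called 1 member, Cdc20, of 40, where it called 4.61% of all genes. At an unadjusted p under 0.05 voom placed 4 of 17 S phase and 7 of 23 mitotic genes lower, beside 13.1% of all genes. It placed 1 S phase and 0 mitotic genes higher, beside 8.08% of all genes.

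Most estimates were below 0. The log2 fold change was below 0 for 13 of 17 S phase genes and 21 of 23 mitotic genes, and for 61.0% of all genes tested. The median was -0.26 for S phase genes and -0.28 for mitotic genes, beside -0.09 for all genes tested. Without TREM2- replicate 1 these medians were -0.05 and -0.16 beside 0.04 for all genes, and without TREM2+ replicate 3 they were -0.08 and -0.20 beside 0.0032. The groups did not overlap, with all TREM2+ libraries lower, for 1 of 17 S phase genes (Uhrf1). The same held for 5 of 23 mitotic genes (Ccnb2, Aurkb, Cdc20, Hmmr and Mki67), beside 7.62% of all genes. They did not overlap in the other direction for 1 S phase gene, Gins2, and 0 mitotic genes, beside 9.07% of all genes. In 15 of the 40 genes the 95% interval of the difference reached past 2-fold, in 14 of them on the lower side, so a 2-fold difference of those genes lies within what the 6 libraries allow. The added 1 TPM shrinks differences of low genes, and with a pseudocount of 0.1 the intervals of 24 of the 40 reached past 2-fold, 23 on the lower side.

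**Figure D3:**
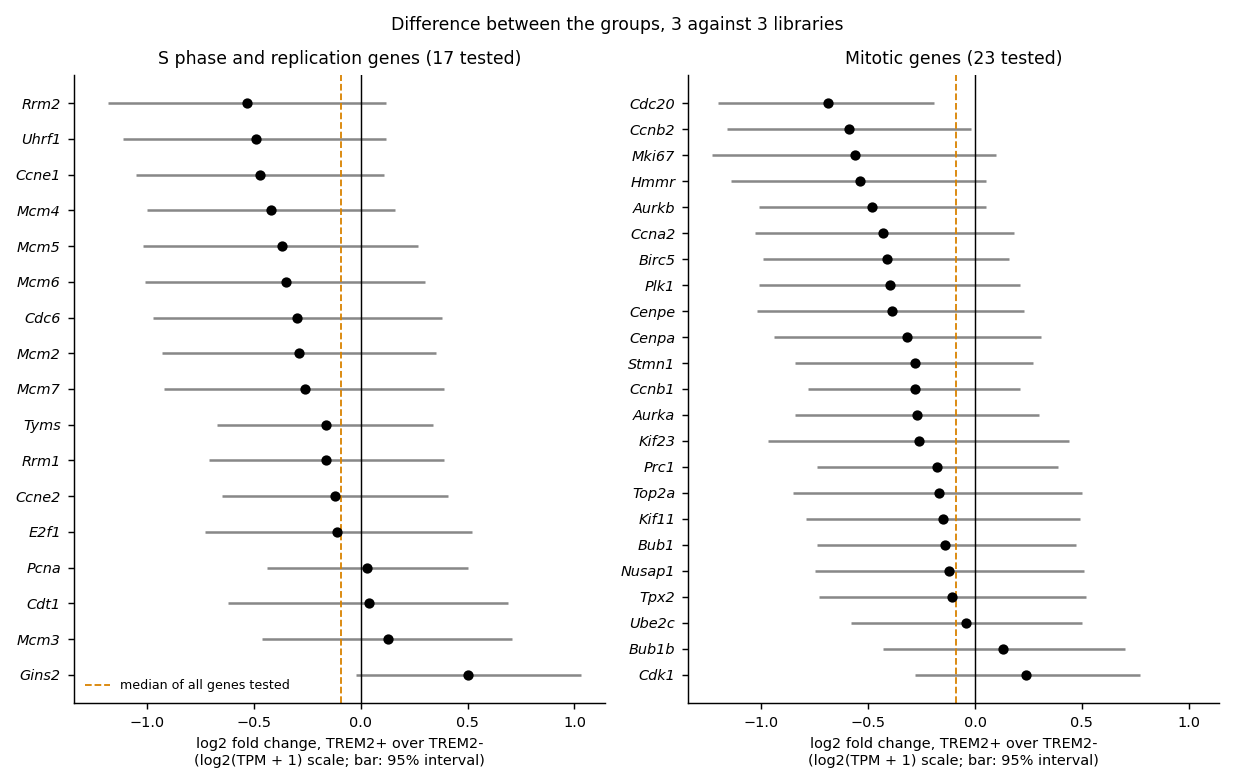
Log2 fold change of each tested member (points) with its 95% interval (bars), TREM2+ over TREM2-, on the log2(TPM + 1) scale; the dashed line is the median of all genes tested. Most points lie left of 0, from -0.69 (Cdc20) to 0.50 (Gins2), and all intervals but those of Cdc20 and Ccnb2 include 0.

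Among the S phase genes, the 6 subunits of the MCM helicase, which form a ring with a single copy of each, had mean levels from 5.13 TPM (Mcm2) to 23.9 TPM (Mcm6). Mcm6 stood at 22.1, 22 and 16.9 TPM in the TREM2+ libraries and at 39.9, 22.2 and 20 TPM in the TREM2- libraries. The TREM2- mean rested on replicate 1, and its other replicates lay near the TREM2+ values (log2 fold change -0.35 ± 0.29, adjusted p = 0.733 in limma). Mcm4 read 14.5, 19.7 and 12.9 TPM against 26.9, 20.3 and 17.1 TPM, with a difference of -0.42 ± 0.26. Mcm3 was the subunit with a positive estimate, 0.13 ± 0.26, at 20.7, 22.4 and 19.3 TPM against 27.2, 16.4 and 15.2 TPM. Its share of the summed MCM level averaged 25.3% in TREM2+ and 19.2% in TREM2- libraries. The share of every other subunit was lower in TREM2+, among them Mcm4 (18.9% and 21.4%) and Mcm2 (5.34% and 5.66%). Differences in these shares were not tested. Mcm2, Mcm5 and Mcm7 had log2 fold changes of -0.29, -0.37 and -0.26. All 6 subunits were highest in TREM2- replicate 1, and all but Mcm3 lowest in TREM2+ replicate 3.

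The loading factors and fork components did not share a direction. Pcna, the sliding clamp and the most abundant member, was level between the groups, at 90.7, 90.0 and 79.6 TPM in TREM2+ and 98.5, 84.4 and 73.3 TPM in TREM2- libraries. Its log2 fold change was 0.03 ± 0.21, with a 95% interval from -0.44 to 0.50, that is from 0.736-fold to 1.42-fold. Cdt1, which loads the helicase, had a difference of 0.04 ± 0.29, and its partner Cdc6 one of -0.30 ± 0.30 at 1.5 ± 0.226 against 2.18 ± 1.08 TPM (SD, n = 3). Gins2, a subunit of the GINS complex of the active helicase, went the other way, with 6.74, 4.66 and 5.25 TPM in TREM2+ and 3.81, 3.70 and 3.26 TPM in TREM2- libraries. The groups did not overlap, and the log2 fold change of 0.50 ± 0.23 had an adjusted p of 0.424 in limma. Exons of Gse1 on the other strand cover 67.3% of the exon bases of Gins2. The sources used here do not give the strand setting of the counting, so reads of this pair cannot be told apart. Gse1 read 1.79 ± 0.124 and 1.83 ± 0.632 TPM (SD, n = 3).

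Among the enzymes of nucleotide supply, Rrm2, the regulatory subunit of ribonucleotide reductase whose level follows the cell cycle, had the largest negative estimate of the S phase set, -0.53 ± 0.29 (adjusted p = 0.517 in limma). It stood at 23.2, 25.1 and 15.3 TPM in TREM2+ and 32.7, 39.1 and 22 TPM in TREM2- libraries, so TREM2- replicate 3 lay inside the range of the TREM2+ group. By mean TPM it was 32.2% lower in TREM2+, against 36.7% for the less abundant Uhrf1 and 32.5% for Ccne1. The catalytic subunit Rrm1 (6.49 ± 0.952 against 7.43 ± 1.70 TPM, SD, n = 3) and thymidylate synthase Tyms (5.71 ± 0.940 against 6.47 ± 0.441 TPM) each had a log2 fold change of -0.16.

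Of the G1/S regulators, E2f1 read 12.9, 16.7 and 8.54 TPM in TREM2+ and 15.9, 12 and 12.3 TPM in TREM2- libraries, with the spread within TREM2+ covering the TREM2- values (-0.11 ± 0.27). Cyclin E1, the CDK2 partner at S phase entry, had Ccne1 levels of 5.41, 4.32 and 3.69 TPM against 8.35, 6.40 and 5.14 TPM. Its difference was -0.47 ± 0.25 (adjusted p = 0.521 in limma), while that of Ccne2 was -0.12 ± 0.23. Uhrf1, which guides maintenance methylation to newly copied DNA, was the S phase gene with all TREM2+ libraries lower, at 3.78, 3.19 and 2.93 TPM against 7.40, 4.03 and 4.20 TPM. The gap between the nearest libraries was small beside the distance of TREM2- replicate 1 from its group, and the difference was -0.49 ± 0.27 (adjusted p = 0.530 in limma).

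In the mitotic set the lowest estimate on the log2(TPM + 1) scale and the smallest p belonged to Cdc20, the activator of the anaphase-promoting complex. It stood at 11.1, 11.6 and 9.51 TPM in TREM2+ and at 20.2, 19.2 and 14.8 TPM in TREM2- libraries. Every TREM2+ library was below every TREM2- library, and the TREM2+ mean was 40.6% below the TREM2- mean. By mean TPM the less abundant Mki67 (45.8%) and Hmmr (43.8%) lay further below. The log2 fold change of Cdc20 was -0.69 ± 0.22, with a 95% interval from -1.20 to -0.19 and an adjusted p of 0.196 in limma. In a two-sided exact permutation test p was 0.1, the smallest possible here. Cdc20 had 114 to 337 recovered reads per library. It passed the threshold in 5 of 19 other settings, among them voom on recovered reads (adjusted p = 0.0364), with adjusted p-values from 0.0207 to 0.598 over all of them. Ube2c, the conjugating enzyme that serves the same complex, stood close in both groups, at 8.38, 13.1 and 8.51 TPM against 10.9, 9.75 and 9.74 TPM (-0.04 ± 0.24). The difference between Cdc20 and Ube2c was not tested.

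Among the cyclins, Ccnb2 (cyclin B2) read 17.7, 29.2 and 18.1 TPM in TREM2+ and 35.5, 32.3 and 29.2 TPM in TREM2- libraries. The groups did not overlap, but TREM2+ replicate 2 and TREM2- replicate 3 were level to within rounding, and the log2 fold change of -0.59 ± 0.25 had an adjusted p of 0.362 in limma. Ccnb1 (cyclin B1) and Ccna2 (cyclin A2) had differences of -0.28 ± 0.22 and -0.43 ± 0.27. Cdk1, the kinase that these cyclins activate, is given with all values although the naming rule did not take it, since its estimate went against theirs. It stood at 7.70, 7.59 and 6.12 TPM in TREM2+ and 7.21, 5.27 and 5.23 TPM in TREM2- libraries, with overlapping groups (0.24 ± 0.23, adjusted p = 0.778 in limma).

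Aurkb and Birc5 encode aurora kinase B and survivin, partners in the chromosomal passenger complex. Aurkb read 7.71, 8.90 and 6.19 TPM against 13, 10.5 and 9.44 TPM, without overlap of the groups (-0.48 ± 0.24, adjusted p = 0.465 in limma). Birc5 read 7.66, 11.7 and 7.33 TPM against 14.0, 9.78 and 12.3 TPM, with TREM2+ replicate 2 above TREM2- replicate 2 (-0.41 ± 0.26). The kinases Plk1 and Aurka had estimates of -0.40 and -0.27. The checkpoint kinase genes Bub1 and Bub1b lay at -0.14 and 0.13, and Bub1 rested on 22 to 56 reads per library.

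Cenpa, the histone variant that marks centromeres, stood at 8.28, 13.2 and 7.52 TPM in TREM2+ and 15.0, 9.54 and 11.9 TPM in TREM2- libraries, with overlapping groups (-0.32 ± 0.28). The kinetochore motor Cenpe had a difference of -0.39 ± 0.27. Stmn1, which destabilises microtubules, read 68.0, 92.3 and 62.3 TPM against 108, 72.6 and 90.1 TPM. TREM2+ replicate 2 lay above the lower TREM2- values, and the estimate was -0.28 ± 0.25. Its transcripts share 20% of their 30-base stretches with the gene Gm11223, listed at a mean of 14.8 TPM, so its level is uncertain. Hmmr, a spindle protein and hyaluronan receptor, was low but without overlap, at 0.884, 1.78 and 1.29 TPM in TREM2+ and 2.77, 2.10 and 2.17 TPM in TREM2- libraries (-0.54 ± 0.26, adjusted p = 0.457 in limma). The motors Kif11 and Kif23 and the spindle and midzone genes Nusap1, Tpx2 and Prc1 had log2 fold changes between -0.26 (Kif23) and -0.11 (Tpx2), and all their groups overlapped.

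Mki67, the gene of the Ki-67 antigen by which dividing cells are commonly stained, is given in full for that use although the naming rule did not take it. It stood at 1.47, 1.76 and 0.805 TPM in TREM2+ and 3.49, 1.81 and 2.13 TPM in TREM2- libraries. The groups did not overlap, but TREM2+ replicate 2 and TREM2- replicate 2 were close together. The TREM2+ mean was 45.8% below the TREM2- mean, and the log2 fold change of -0.56 ± 0.29 had an adjusted p of 0.503 in limma and a 95% interval from -1.23 to 0.10. Top2a, the topoisomerase that untangles sister chromosomes, had 3.18 ± 0.886 against 3.80 ± 1.54 TPM (SD, n = 3) and a difference of -0.17 ± 0.30.

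Most members shared their highest and their lowest library. TREM2- replicate 1 was the highest of the 6 libraries for 13 of 17 S phase genes and 19 of 23 mitotic genes, beside 52.0% of all genes tested. TREM2+ replicate 3 was the lowest for 14 S phase and 14 mitotic genes, beside 37.8% of all genes. TREM2+ replicate 1 was the lowest for 7 more mitotic genes, beside 11.3% of all genes. Relative to each gene's own mean on the log2 scale, the median S phase gene lay at 0.435 in TREM2- replicate 1 and the median mitotic gene at 0.419, beside 0.292 for all genes tested. In TREM2+ replicate 3 the medians were -0.373 and -0.302, beside -0.205 for all genes.

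The sets parted in TREM2+ replicate 1, where the median S phase gene lay at -0.023, close to the 0.036 of all genes, and the median mitotic gene at -0.258. They also parted in TREM2- replicate 3, at -0.099 for S phase and 0.03 for mitotic genes, beside -0.166 for all genes. The ratio of the summed mitotic to the summed S phase level does not depend on how a library is scaled. It was 70.9%, 92.2% and 82.0% in TREM2+ replicates 1, 2 and 3 and 87.9%, 84.0% and 107% in TREM2- replicates 1, 2 and 3, so the groups overlapped. With Stmn1 and Pcna, the most abundant gene of each sum, left out it was 68.6%, 87.1% and 84.4% against 78.8%, 83.1% and 99.1%. Pcna alone made up 35.5%, 33.3% and 39.1% of the S phase sum in TREM2+ and 28.9%, 32.0% and 32.9% in TREM2- libraries. These shares did not overlap, and the difference was not tested.

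**Figure D4:**
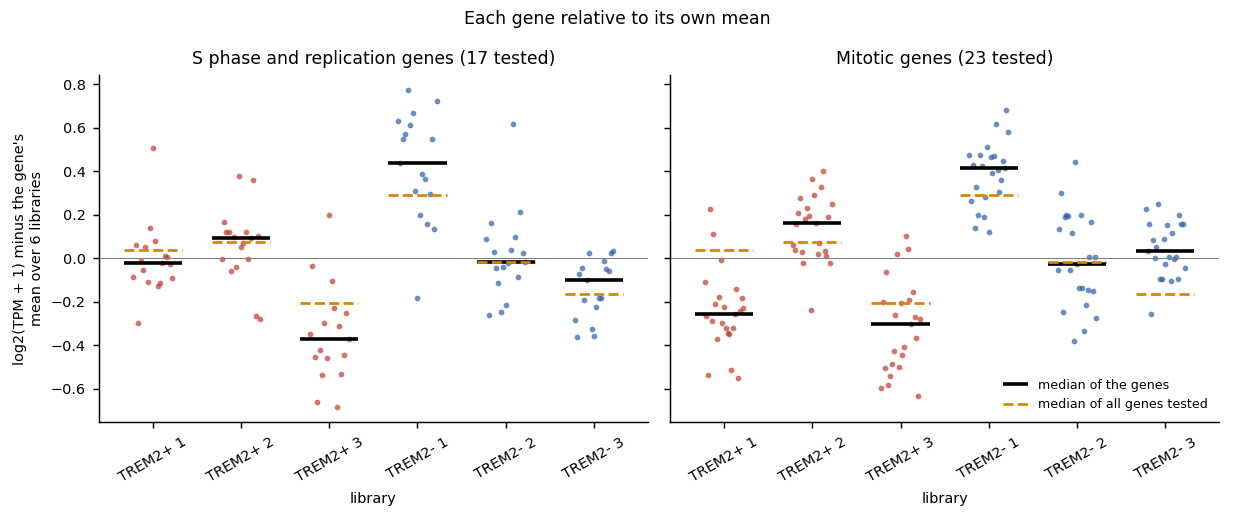
Each tested member relative to its own mean over the 6 libraries (vertical axis, log2 scale), by library; solid lines are medians of the members and dashed lines medians of all genes tested. TREM2- replicate 1 is high and TREM2+ replicate 3 low in both panels, and in TREM2+ replicate 1 the mitotic median is at -0.258 while the S phase median is at -0.023.

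Markers of other cell types, some of which can divide, were present in these libraries and differed between them. The summed level of 9 T and NK cell markers ranged from 1111 to 1169 TPM in TREM2+ and from 1702 to 3844 TPM in TREM2- libraries, and was highest in TREM2- replicate 1. That of 8 B and plasma cell markers ranged from 2499 to 4432 TPM and from 2619 to 10040 TPM, and was also highest there. Basophil and mast cell markers (6 genes, 3 of them called lower) summed to 17 to 26.7 TPM against 117 to 214 TPM, and dendritic cell markers (7 genes, 1 called lower) to 54.9 to 71.6 TPM against 93.7 to 252 TPM. Endothelial markers (8 genes, 7 called higher) lay at 226 to 326 TPM against 19.5 to 39.5 TPM. Of all genes tested, limma called 0.37% lower and 2.05% higher. Neutrophil markers (8 genes) summed to 15800 to 19800 TPM against 18300 to 22700 TPM, but their members differed in direction. The granule protein genes Ngp, Camp and Ltf, made by neutrophil precursors, stood at 0.327, 0.308 and 0.471 of their TREM2- mean level without overlap, and limma called Camp lower (adjusted p = 0.0308; 0.0532 for Ngp and 0.0916 for Ltf). S100a9 and Cxcr2 had means 1.71-fold and 1.95-fold those of TREM2- libraries, also without overlap and not called (adjusted p = 0.298 and 0.0746 in limma). Sums overlapped for 8 monocyte markers (1 called lower), at 3950 to 30600 TPM against 13900 to 75500 TPM, for 8 erythroid markers, at 2220 to 13100 TPM against 4500 to 16000 TPM, and for 8 hepatocyte and tumour epithelium markers, at 178 to 537 TPM against 246 to 676 TPM. The 7 stellate cell and fibroblast markers summed to 12.1 to 15.8 TPM against 12.6 to 28.6 TPM. Of these, Col1a1, Col1a2, Lrat and Pdgfrb were under 1 TPM in every library, as were the B cell factor Pax5 and the erythroid factor Klf1 and gene Ermap. No marker was at 0 in all libraries. None of the 8 macrophage markers was called, and all but Lyz2 had an estimate above 0. Their sum, 32500 to 42400 TPM against 58100 to 75500 TPM, was mostly the lysozyme gene Lyz2, at 28300 to 37300 TPM in TREM2+ and 55300 to 70500 TPM in TREM2- libraries (-1.02 ± 0.27, adjusted p = 0.115 in limma). Mertk, Fcgr1 and Cd68 had the other sign, without overlap of the groups, at mean levels 3.99-fold, 2.08-fold and 1.38-fold those of TREM2- libraries (adjusted p = 0.0560, 0.0821 and 0.480 in limma). Csf1r, Adgre1, Cd14 and Itgam also had estimates above 0 (0.44, 0.11, 1.04 and 0.14), with overlapping groups. The part of these cell types in the members' levels was not tested.

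Other genes of the pathway, from lists chosen by role, gave the same count. Of 37 further replication genes 31 were tested, and limma called none of them, beside 2.42% of all genes tested. At an unadjusted p under 0.05 limma placed 2 lower and none higher, beside 5.34% and 7.45% of all genes tested. The lower genes were Rpa2, a subunit of the single-strand binding protein RPA (20.8 ± 3.06 against 33.1 ± 7.65 TPM, SD, n = 3), and Rfc2, a subunit of the clamp loader (27.5 ± 5.43 against 43.3 ± 10.7 TPM). The groups of both genes did not overlap. The DNA ligase gene Lig1 had an estimate of 0.33 ± 0.23 and the helicase activator Cdc45 of -0.47 ± 0.23. The list's median was -0.11, close to the -0.09 of all genes.

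Of 48 further mitotic genes 43 were tested with a median of -0.24, and limma called none. At an unadjusted p under 0.05, 3 were lower and 1 was higher, beside 5.34% and 7.45% of all genes tested. The lower genes were Racgap1, needed for cytokinesis (4.31, 4.04 and 3.92 TPM in TREM2+ against 10.8, 7.18 and 5.69 TPM in TREM2- libraries), Cdkn3, a phosphatase that acts on CDKs (-0.80 ± 0.30), and the centromere gene Cenpm (-0.97 ± 0.40). Racgap1 was even among the TREM2+ libraries and all of them lay below the TREM2- libraries, with a log2 fold change of -0.77 ± 0.26 and an adjusted p of 0.236 in limma. The higher gene was Lmnb1, which encodes the nuclear lamina protein lamin B1, at 33.6, 40.5 and 46.5 TPM against 16.9, 30.3 and 19.5 TPM (0.86 ± 0.27, adjusted p = 0.181 in limma).

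Of 19 G1 cyclin, CDK and RB family genes 16 were tested, with a median of -0.02 and no call. Ccnd3, which encodes the G1 cyclin D3, read 34.3, 45.1 and 26.3 TPM in TREM2+ and 81.6, 62.1 and 53.7 TPM in TREM2- libraries, without overlap. Its log2 fold change of -0.89 ± 0.27 had an adjusted p of 0.160 in limma, and voom called it (adjusted p = 0.0228). Ccnd1, the gene of cyclin D1, had an estimate of the other sign (0.52 ± 0.27), as had the growth regulator Myc (0.55 ± 0.25), while E2f2, an S phase activator, stood at -1.06 ± 0.37 (adjusted p = 0.237 in limma).

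Of 16 CDK inhibitor, p53 target and antiproliferative genes 14 were tested, with a median of -0.07 and no call. Cdkn1a, which encodes the CDK inhibitor p21, read 434, 351 and 314 TPM in TREM2+ and 141, 342 and 183 TPM in TREM2- libraries. TREM2- replicate 2 lay inside the TREM2+ range, and the difference was 0.81 ± 0.33 (adjusted p = 0.339 in limma). Btg1, an antiproliferative factor, was even in TREM2+ libraries at 542, 511 and 507 TPM and lower in every TREM2- library at 371, 423 and 285 TPM (0.55 ± 0.22, adjusted p = 0.339). Cdkn2d, the gene of an inhibitor of CDK4 and CDK6, had the other sign, with 126 ± 49.4 against 239 ± 23.9 TPM (SD, n = 3) and -0.97 ± 0.28 (adjusted p = 0.147 in limma). The imprinted inhibitor gene Cdkn1c was low in both groups and had an estimate of 0.65 ± 0.32. Over these 4 lists voom called 4 of 104 genes, Rpa2, Racgap1, Ccnd3 and Cdkn2d, all lower in TREM2+, where it called 4.61% of all genes.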

How the data were processed

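Polyadenylated RNA of 3 TREM2+ and 3 TREM2- macrophage samples was sequenced with paired ends, per the labels' protocols. Per the submitters' processing notes, the tools were STAR 2.7.10a, Subread and featureCounts 2.0.3 and the build mm10. The sources used here do not give the annotation, strand setting or formula. The authors deposited a length-scaled signal named TPM, whose 6 columns sum to 1000000 together and not singly, so each library was rescaled here to 1000000. Whole reads were recovered with exon lengths of GENCODE M21 (of 36673 matched genes above 0, 98.7% gave whole reads in every library, to within 0.01 read), without molecular identifiers, so they show counting depth only. No column lacked a sample.

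Genes with at least 1 TPM in at least 3 libraries were tested on log2(TPM + 1) by limma 3.58.1 (R 4.3.3), two-sided, with the variance trended on the mean. P-values of all 13788 genes were adjusted by Benjamini-Hochberg, and the threshold was 0.05. Values after ± are standard errors for log2 fold changes and SDs for TPM. The labels do not say whether replicates were separate animals, so p-values reflect only how far these samples spread, and that spread may be technical. Repeat transcripts related to Gm10800 took from 0.427% to 24.6% of the TPM of a library and mitochondrially encoded ones from 2.42% to 12.3%. Of the members, 7 share at least 10% of their 30-base stretches with another annotated gene (Ccnb1, Cdc20, Mcm7, Pcna, Plk1, Stmn1 and Uhrf1), and 5 overlap another gene on the opposite strand in over 10% of their exon bases (Ccna2, Ccne2, Gins2, Prc1 and Ube2c), so their reads are uncertain.

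Members, lists, tests and other settings were chosen with earlier results of these data known. By the naming rule, values in every library are given for the 6 most abundant members and the 4 with the smallest p in each set, and from each other list up to 4 genes with the smallest p are named. Settings varied were scaling, pseudocount, filter, threshold, trend, library weights, voom, a replicate block, and leaving out each library or both numbered 3.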

Additional observations from a re-analysis of the deposited data

How the results depend on the processing

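No S phase member was called in any of the 19 other settings, and of the mitotic members only Cdc20 was, in 5: library weights, median-of-ratios scaling, quantile normalization, the total without repeat and mitochondrial transcripts, and voom, with a count of 1 in each. The median log2 fold change of both sets stayed below 0 in all 19. Of these, the threshold of 0.1, the fit without the trend and the replicate block cannot change a fold change. Leaving out single libraries moved the median from -0.36 to -0.05 for S phase and from -0.39 to -0.16 for mitotic genes. With library weights the medians were -0.07 and -0.13, beside 0.02 for all genes. Calls among the other pathway genes numbered 7 of 104 with library weights (9.90% of all genes called there), 2 with median-of-ratios scaling (3.64%), 3 with quantile normalization (3.75%), 1 of 111 with the total without repeat and mitochondrial transcripts (2.49%), 4 with voom (4.61%), and 0 to 1 when single libraries were left out (0.878% to 2.93%), the 1 being Cdkn2d without TREM2+ replicate 2. With replicates 3 of both groups left out, 0 of all 13788 genes were called by limma, with 4.23% lower and 5.53% higher at an unadjusted p under 0.05. Trem2 passed with the threshold of 0.1 (log2 fold change 0.89), with library weights (log2 fold change 0.9) and with voom (log2 fold change 0.87). The cause of these changes was not tested.

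Of 745 refits of single members 35 changed sign, in 12 genes, none of them called. The 745 include refits that changed only the threshold, filter, trend or block, which cannot change the sign of a single gene. Library weights gave 0.07 for Mcm7, 0.04 for Cdc6, 0.10 for E2f1, 0.02 for Nusap1, 0.01 for Tpx2 and 0.08 for Top2a. Without both libraries numbered 3, Pcna was at -0.01, E2f1 at 0.08 and Ube2c at 0.03. The deposited values without rescaling gave -0.05 for Cdt1 and -0.06 for Pcna, the total without repeat and mitochondrial transcripts -0.03 and -0.04, and voom -0.03 and -0.04. Ube2c was at 0.04 with median-of-ratios scaling and 0.02 with quantile normalization. Leaving out single libraries gave ranges from -0.02 to 0.37 for Mcm3, -0.14 to 0.28 for Cdt1, -0.07 to 0.14 for Pcna, -0.31 to 0.13 for E2f1, -0.02 to 0.31 for Bub1b, -0.23 to 0.06 for Ube2c, -0.26 to 0.05 for Kif11, -0.32 to 0.05 for Nusap1, -0.33 to 0.02 for Tpx2 and -0.35 to 0.07 for Top2a.

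With the replicate number as a block 0 S phase and 0 mitotic members were called, beside 0.914% of all genes. In that fit 2 of 17 and 3 of 23 were lower at an unadjusted p under 0.05, beside 7.46% of all genes. The labels do not say what the numbers share. Deviations of same-numbered libraries correlated across genes at 0.188, -0.0325 and 0.224. The libraries numbered 1, and likewise those numbered 3, were each other's best match, and TREM2+ replicate 2 correlated best with TREM2- replicate 3 (0.132). The main fit did not use the pairing, and these correlations do not settle whether the numbers mark pairs. The share of repeat transcripts was, in order of the numbers, 0.704%, 5.05% and 17.5% in TREM2+ and 0.427%, 12.9% and 24.6% in TREM2- libraries, lowest in number 1 and highest in number 3 of both groups. Depth limits the low members most, since Bub1 had 22 to 56 and Cenpf 38 to 81 reads per library.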
